A study of Mus musculus with 8 samples.

Results

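Inflammatory cytokines and the inflammasome were described through 10 genes, Il1a, Il1b, Il1rn, Tnf, Il6, Il10, Il18, Osm, Nlrp3 and Nfkbia, which were taken by their symbol from the 32285 genes listed in every count table. Each symbol matched 1 row. The rule used no measured value, but the genes were chosen with earlier results of these data known. All 10 genes were detected, from 440 UMIs of Il10 to 119330 UMIs of Nfkbia over the kept cells. A UMI is a molecular tag that counts 1 captured RNA molecule.

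Interleukin-1 signalling starts with a precursor that is made after NF-kappaB is switched on, and the precursor of interleukin-1β is cut into its active form by caspase-1 within the NLRP3 inflammasome. In the heart, neutrophils, monocytes and macrophages are known as the main sources of interleukin-1β and tumour necrosis factor, and fibroblasts as a source of interleukin-6. Interleukin-10 and the interleukin-1 receptor antagonist restrain these signals, and Nfkbia encodes IκBα, the inhibitor that NF-kappaB itself induces.

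The hearts came from wild-type male C57BL/6J mice that were 8 weeks old at the start. Transverse aortic constriction (TAC) ties a suture around the aortic arch and so loads the left ventricle with pressure, and the sham mice had surgery without a constriction. Hearts were taken 2 weeks (TAC-2w), 4 weeks (TAC-4w) and 6 weeks (TAC-6w) after constriction, and each condition and sham had 1 library of heart cells and 1 spatial transcriptomics (ST) section. The number of hearts behind a library is not given in the sources used here. In the labels, sham and TAC-6w cells share a batch, as do the sham and TAC-2w sections, so that only these comparisons with sham lie within a batch. For every other comparison the batch and the time after TAC cannot be told apart. With 1 library per condition no difference between conditions was tested, and all intervals are exact 95% intervals that cover counting error only. Where a count is 0, a floor of 3 counts is named as such.

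The kept cells were 7965 of sham, 6293 of TAC-2w, 6531 of TAC-4w and 5399 of TAC-6w, and lists of 4 values below follow this order. Pairs of libraries shared 9 to 30 cell barcodes. The labels speak of isolated nuclei, while the study's methods give a digestion of fresh tissue into cells, and the barcodes are called cells here. Cell classes were named from marker genes, none of them a member. Neutrophil-like, macrophage-like and fibroblast-like cells carried all 6 of their markers at over 2-fold the level of other cells, and monocyte-like cells, taken as classical and nonclassical, 10 of 12. There were 144, 70, 1235 and 190 neutrophil-like cells, 72, 82, 213 and 40 monocyte-like cells, 1509, 1492, 167 and 896 macrophage-like cells and 4483, 3227, 431 and 2875 fibroblast-like cells. The TAC-4w library therefore stood apart in its makeup. It also carried neutrophil RNA in other cells: the neutrophil gene S100a8 had a UMI in 64.0% of its fibroblast-like cells and 41.3% of its B cell-like cells, against 2.36% and 0.429% in sham. Levels are given in CPM, the usual counts-per-1e6 scale, from the UMIs of a gene over all UMIs of its class and library. They were not divided by gene length, so that levels are compared between cells and libraries and not between genes.

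Promoter sequence was held by the RefSeq tables for 8 of the 10 genes (build GRCm38.p6), and Il10 and Osm had no entry. Il1b had its level mostly in myeloid cells, and Nfkbia was detected in every named class. Tnf was high in myeloid cells too, but in TAC-4w it was highest in T cell-like cells. Il6 was highest in fibroblast-like cells among the named classes compared below. The 250 bases before the start are shown for Il1b, Tnf, Il6 and Nfkbia. They are written 5′ to 3′ on the strand of the gene, and capitals mark a match to TATAAA in Il1b and Tnf and to the NF-kappaB consensus in Il6 and Nfkbia.
Il1b, chr2:129371140-129371389, minus strand: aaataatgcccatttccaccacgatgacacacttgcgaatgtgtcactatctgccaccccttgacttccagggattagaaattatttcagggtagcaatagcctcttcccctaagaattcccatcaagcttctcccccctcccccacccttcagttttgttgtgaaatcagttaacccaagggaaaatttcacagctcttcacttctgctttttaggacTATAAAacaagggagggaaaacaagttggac
Tnf, chr17:35202008-35202257, minus strand: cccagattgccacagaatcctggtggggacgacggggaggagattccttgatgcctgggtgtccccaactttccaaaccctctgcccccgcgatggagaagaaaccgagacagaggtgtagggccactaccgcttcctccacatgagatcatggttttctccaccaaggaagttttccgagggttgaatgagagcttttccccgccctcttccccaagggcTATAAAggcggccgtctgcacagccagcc
Il6, chr5:30012864-30013113, plus strand: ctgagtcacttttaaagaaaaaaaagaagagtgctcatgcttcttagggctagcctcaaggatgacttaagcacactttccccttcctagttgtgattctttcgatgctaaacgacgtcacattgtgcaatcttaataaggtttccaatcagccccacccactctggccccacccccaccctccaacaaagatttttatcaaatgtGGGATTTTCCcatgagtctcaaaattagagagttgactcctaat
Nfkbia, chr12:55492648-55492897, minus strand: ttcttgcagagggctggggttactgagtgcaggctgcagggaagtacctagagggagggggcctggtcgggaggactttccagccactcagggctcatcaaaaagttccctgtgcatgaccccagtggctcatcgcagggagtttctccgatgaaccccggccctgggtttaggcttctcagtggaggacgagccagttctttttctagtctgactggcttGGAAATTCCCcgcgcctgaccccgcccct

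TATAAA lay 31 to 26 bases before the Il1b start and 29 to 24 bases before the Tnf start. The NF-kappaB match lay 44 to 35 bases before the Il6 start on the plus strand, and 29 to 20 bases before the Nfkbia start on the opposite strand. Searched on both strands, the NF-kappaB consensus was found in 3 of the 8 genes (Il6, Nfkbia and the second start of Nlrp3) and TATAAA in 4 (Il1a, Il1b, Tnf and Il18). TGANTCA, a palindromic AP-1 site that reads alike on both strands, was found in 3 (Il1a, Il1rn and Il6). In windows of the same length, 5.00% of 32851 promoters held the NF-kappaB consensus, 12.4% TATAAA and 6.75% TGANTCA. These shares are per window, whereas the counts of genes run over 11 windows, since Il1rn had 3 starts and Nlrp3 2. The counts and the shares are therefore not in like units. All matches are of letters and not measured sites.

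Myeloid cells held the highest level of most members. Among named classes with at least 50 cells in a library, which left out the 40 monocyte-like cells of TAC-6w, neutrophil-like, monocyte-like or macrophage-like cells were highest for 9 of the 10 genes in sham, 8 in TAC-2w, 7 in TAC-4w and 8 in TAC-6w. Il1a, Il1b, Il1rn, Osm, Nlrp3 and Nfkbia were highest in neutrophil-like cells of all 4 libraries, and Il6 was highest in fibroblast-like cells of all 4. The interval of the top class lay apart from that of the second for Il1b, Il1rn, Osm, Nlrp3 and Nfkbia in every library. It overlapped for Il1a and Tnf in sham and TAC-2w, for Il6 in sham and TAC-4w, for Il10 in sham and TAC-6w, and for Il18 in every library but TAC-6w.

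**Figure D1:**
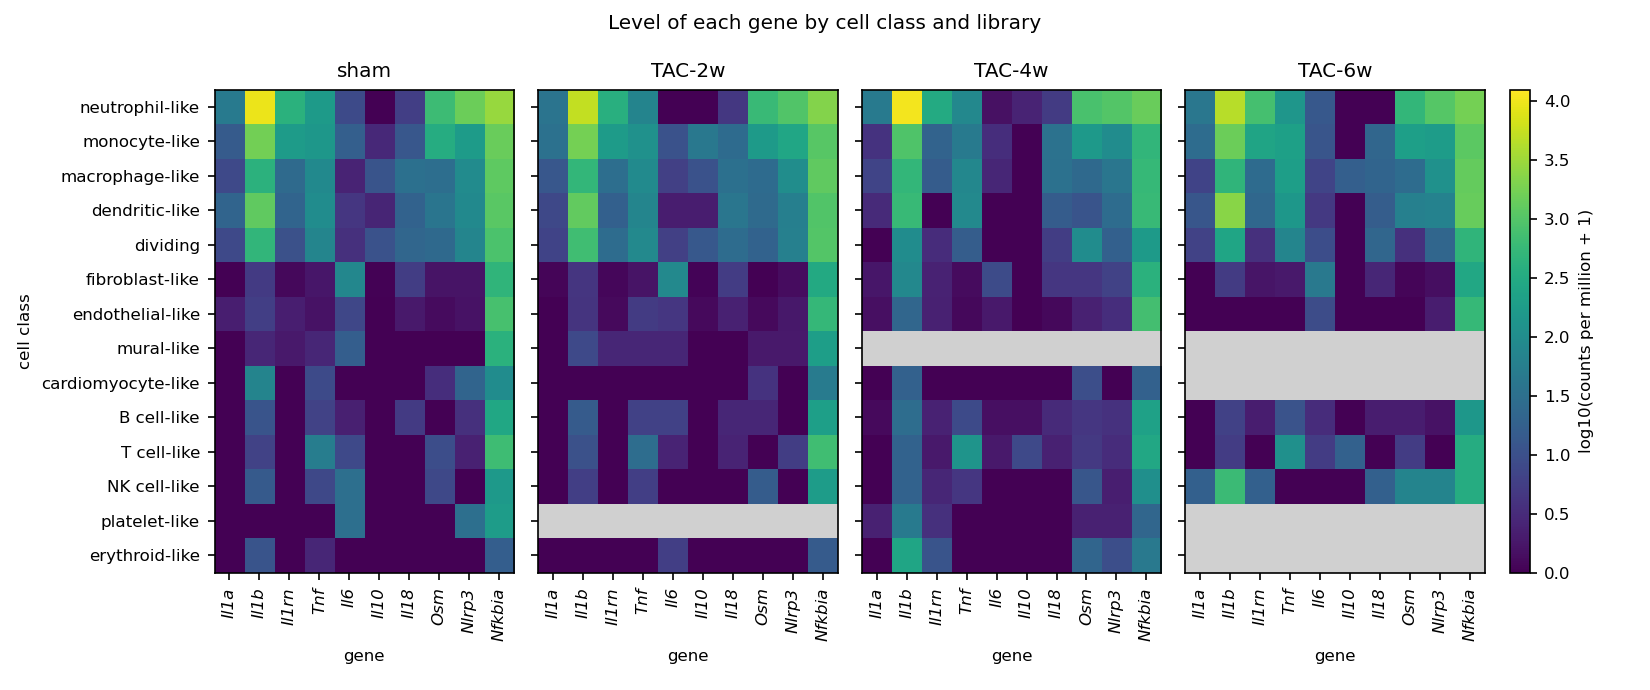
Level of the 10 genes, as log10(CPM + 1), by cell class and library; bright colours are high, and grey marks classes with fewer than 20 cells in that library. Il1b, Il1rn, Osm and Nlrp3 are brightest in the neutrophil-like row of every library, and Il6 in the fibroblast-like row.

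Il1b encodes interleukin-1β, the cytokine that the inflammasome releases. In neutrophil-like cells its level was 9476 CPM (9182 to 9777) in sham, 5257 (4989 to 5537) in TAC-2w, 10798 (10713 to 10883) in TAC-4w and 4543 (4335 to 4759) in TAC-6w. The sham and TAC-4w levels were thus the high ones and the TAC-2w and TAC-6w levels the low ones, and no interval overlapped another. The TAC-6w level was 0.480 of sham (0.453 to 0.507). Immature neutrophil-like cells, which carry genes of granule proteins such as Camp and Ngp, held less Il1b. They were 7.64% of the class in sham, 17.1% in TAC-2w, 18.9% in TAC-4w and 16.3% in TAC-6w, with Il1b at 594, 1176, 2566 and 388 CPM. In the mature cells alone Il1b stood at 11630, 7566, 16678 and 7804 CPM, and the TAC-6w ratio was 0.671, no longer past 2-fold. Over 11 other settings this ratio ran from 0.443 to 0.774 and stayed below 1.

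Counted per cell, the median mature neutrophil-like cell held 23 Il1b UMIs in sham, 20 in TAC-2w, 47 in TAC-4w and 7 in TAC-6w. Nearly every such cell had at least 1: the share was 99.2%, 100%, 99.6% and 89.9%. With all neutrophil-like cells thinned to 1000 UMIs, which left out 0, 0, 17 and 24 shallower cells, the share with an Il1b UMI was 92.4%, 87.1%, 91.9% and 77.7%, against 96.5%, 91.4%, 94.3% and 80.5% before thinning. The lower share in TAC-6w than in sham (70.6% to 83.8%) therefore remained at equal depth. These thinned shares pool mature and immature cells, and immature cells were 7.64% of the class in sham and 16.3% in TAC-6w. The part of this makeup was not tested.

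Monocyte-like cells had Il1b at 1685, 1747, 943 and 1492 CPM. The low TAC-4w level was carried by classical monocyte-like cells, at 1926, 1245, 735 and 1652 CPM, a TAC-4w ratio of 0.382 (0.347 to 0.421). Nonclassical cells, which patrol vessels, had 1200, 2230, 1987 and 1117 CPM, and their TAC-4w ratio of 1.65 lay on the other side of 1. In macrophage-like cells as a whole Il1b was at 422, 510, 514 and 482 CPM, while the clusters of this class, described below, differed in direction. It was also uneven between cells: the median cell had 0, 0, 1 and 0 Il1b UMIs, and the top 10% of cells held 82.7%, 78.9%, 65.8% and 73.0% of the UMIs. Dendritic-like cells had 1278, 1298, 585 and 2378 CPM from 52, 62, 32 and 35 cells.

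The class that supplied a library's Il1b changed with its makeup. Neutrophil-like cells held 30.6% of the library's Il1b UMIs in sham, 10.3% in TAC-2w, 92.6% in TAC-4w and 37.5% in TAC-6w, and macrophage-like cells 37.0%, 50%, 0.885% and 34.2%. Over all cells Il1b was at 175, 207, 1740 and 177 CPM. The 9.95-fold higher level of the TAC-4w library thus stood beside a neutrophil-like share of 18.9% of cells, against 1.81% in sham.

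Fibroblast-like cells had Il1b at 4.03, 3.35, 81.1 and 4.11 CPM, a TAC-4w ratio of 20.1 (17.0 to 23.9). Beside it, S100a8 stood at 2.22, 2.97, 264 and 17.0 CPM in the same cells. S100a8 is a gene of neutrophils, and in the TAC-4w library the number of Il1b UMIs per S100a8 UMI was 0.307 (0.278 to 0.340) in fibroblast-like cells and 0.310 (0.307 to 0.313) in mature neutrophil-like cells. It was 0.324 (0.278 to 0.376) in erythroid-like cells, 0.214 in B cell-like cells, 0.211 in endothelial-like cells and 0.136 in T cell-like cells. It was 0.179 in platelet-like and 0.141 in NK cell-like cells, against 0.0186 in immature neutrophil-like cells and 0.00646 in dividing cells. Over all neutrophil-like cells, mature and immature, it was 0.122 (0.121 to 0.123). In macrophage-like and monocyte-like cells of the TAC-4w library it was 4.68 and 0.753. In sham it was 1.815 in fibroblast-like and 0.177 in all neutrophil-like cells. Thinned to 1000 UMIs, 2.56% of TAC-4w fibroblast-like cells had an Il1b UMI, against 0.382%, 0.469% and 0.211% in sham, TAC-2w and TAC-6w. Before thinning it was 18.3% in TAC-4w, against 2.68%, 3.32% and 0.939% in sham, TAC-2w and TAC-6w. Of TAC-4w B cell-like cells 10.0% also had one. The median depth in TAC-4w was 13948 UMIs in fibroblast-like and 4350 in B cell-like cells. The TAC-4w ratio of Il1b to sham in fibroblast-like cells was 5.83 when each cell was named by its own marker score. It was not alike in the clusters of this class, which are described below. In cluster 0 it was 8.34 (5.77 to 11.9), in cluster 1 30.6 (24.1 to 39.3) and in cluster 10 3.47 (1.67 to 7.27).

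**Figure D2:**
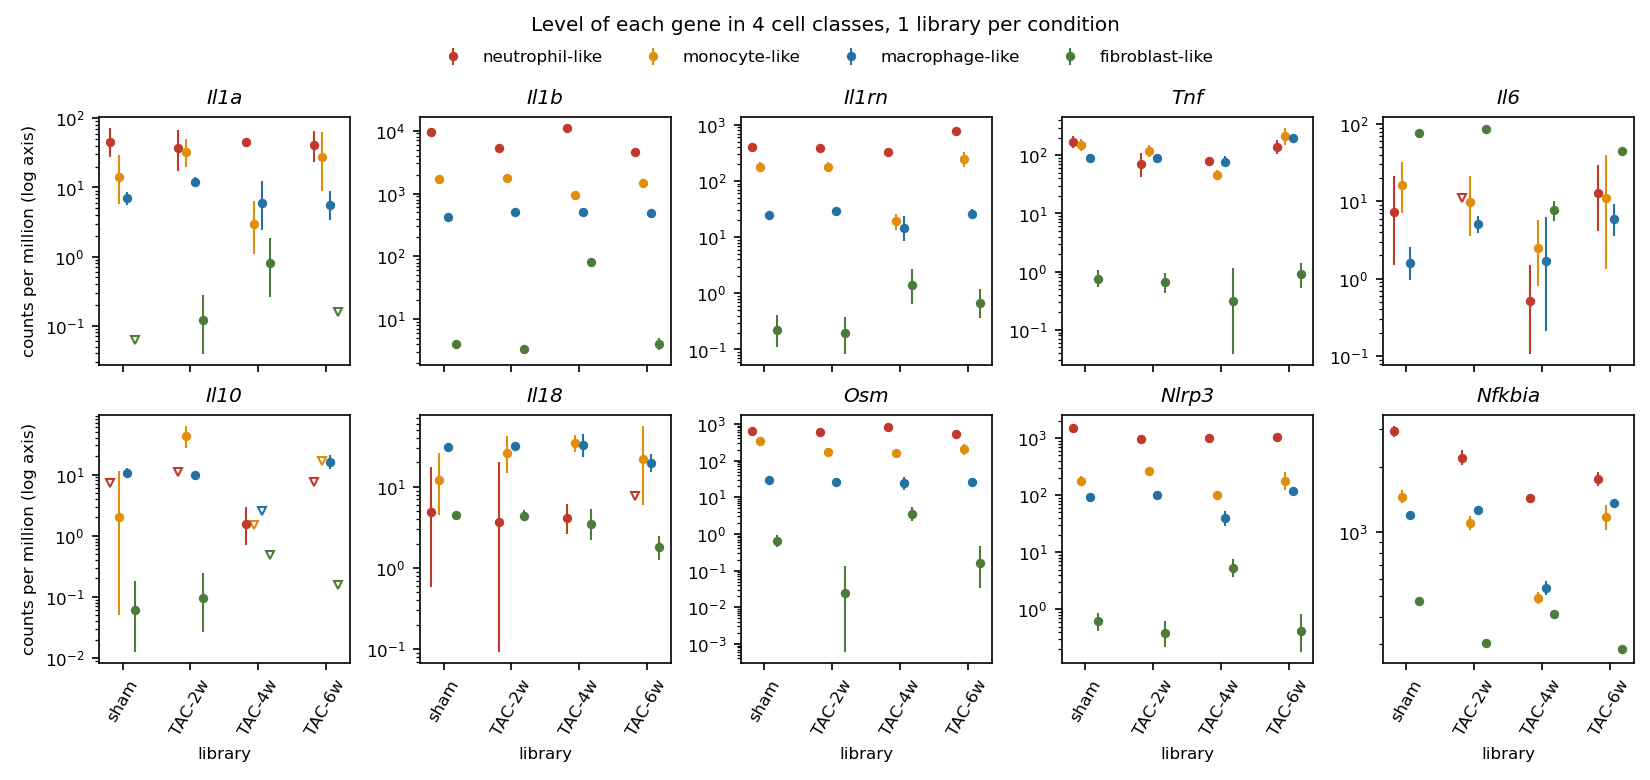
Level of each of the 10 genes (CPM, log axis) in neutrophil-like, monocyte-like, macrophage-like and fibroblast-like cells of the 4 libraries, with exact Poisson intervals; open triangles mark the level of 3 counts where none was seen. Il6 lies highest in fibroblast-like cells and drops to 7.65 in TAC-4w, and Il1b of fibroblast-like cells rises to 81.1 in the same library.

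Il1a encodes interleukin-1α, which is active without the inflammasome and signals through the same receptor. It was scarce, with 750 UMIs in all. In neutrophil-like cells its level was 45.9, 36.6, 46.2 and 40.7 CPM, with intervals that overlapped between all libraries. In macrophage-like cells it was 6.96, 12.2, 6.00 and 5.62 CPM, highest in TAC-2w with an interval of 10.4 to 14.2.

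Il1rn encodes the receptor antagonist that occupies the interleukin-1 receptor without signalling. Its level in neutrophil-like cells was 409, 381, 324 and 775 CPM, so that the TAC-6w level lay above the other 3 (691 to 868). The ratio to sham was 1.90 (1.57 to 2.30), and in mature cells alone, at 493, 528, 479 and 1338 CPM, it was 2.72 (2.24 to 3.31). In TAC-6w mature neutrophil-like cells the ratios of Il1b and its antagonist were 0.671 and 2.72, on opposite sides of sham, and these libraries share a batch. The cells compared nevertheless separated by library: at the finer resolution of 1, a cluster of low UMI counts held 88.1% of the TAC-6w but 13.5% of the sham mature cells, and another cluster 11.9% and 85.7%, so that no cluster held 20 cells of both libraries and no ratio within a cluster was taken. The median depth of these main clusters was 1333 UMIs in TAC-6w and 2423 in sham, and the part of depth was not tested. In monocyte-like cells Il1rn was at 180, 179, 19.2 and 246 CPM. The low TAC-4w value, from 39 UMIs in 213 cells, was 0.107 of sham (0.0713 to 0.157), but it was 0.678 when no doublets were removed and 0.913 with a mitochondrial share under 5%. Macrophage-like cells had 24.8, 29.5, 14.6 and 26.1 CPM.

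Tnf encodes tumour necrosis factor, the ligand of Tnfrsf1a and Tnfrsf1b. In macrophage-like cells its level was 88.3 CPM (82.9 to 94.0), 89.6 (84.6 to 94.7), 78.0 (62.8 to 95.8) and 198 (183 to 214). TAC-6w stood above the other 3 libraries, which overlapped, at 2.24-fold over sham (2.03 to 2.48). Sham and TAC-6w share a batch, and the ratio lay between 2.06 and 2.37 over 11 other settings. At 1000 UMIs per cell, 6.99%, 7.84%, 7.41% and 14.3% of macrophage-like cells had a Tnf UMI, and 42 of the TAC-6w cells were too shallow to enter. Before thinning the shares were 32.7%, 34.6%, 27.5% and 33.7%, so that the shares set TAC-6w apart only once depth was made equal, as the levels did. At most 0.0703% of the thinned fibroblast-like cells of a library had a Tnf UMI.

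The macrophage-like cells fell into 4 clusters whose shares differed between libraries, and Tnf was therefore also read within each. Cluster 0 was led by Ccl12 and antigen presentation genes such as H2-Eb1, cluster 1 by Lyve1, Folr2 and Ccl8, cluster 4 by Cxcl13, Cd207 and Vsig4, and cluster 3, of which TAC-6w gave 76.0% of the cells, by H2-Eb1, Ccl3 and Cd83. Cluster 3 held 6.36% of the sham and 67.4% of the TAC-6w macrophage-like cells. Tnf in TAC-6w over sham was 2.63 (2.19 to 3.13) in cluster 0, 1.07 (0.764 to 1.46) in cluster 1, 1.46 (1.04 to 2.09) in cluster 3 and 3.36 (2.42 to 4.61) in cluster 4. The Lyve1 cluster was the one whose interval held 1. Without cluster 3 the ratio of the whole class was 2.06. In TAC-4w, Tnf of cluster 0 was at 0.581 (0.432 to 0.768) of sham, from 55 UMIs, although the whole-class intervals overlapped. The TAC-6w ratio of Il1b was 0.590 (0.510 to 0.679) in cluster 0, 0.376 (0.223 to 0.598) in cluster 1, 0.694 (0.606 to 0.798) in cluster 3 and 0.963 (0.794 to 1.16) in cluster 4, although the ratio of the whole class was 1.14 (1.08 to 1.21). Its interval thus lay below 1 in clusters 0, 1 and 3 and held 1 in cluster 4. In TAC-4w Il1b was at 0.798 (0.719 to 0.884) in cluster 0 and 0.626 (0.486 to 0.80) in cluster 3, against 1.22 for the whole class, so that the direction turned there too. In TAC-2w it was at 1.61 (1.53 to 1.68), 0.959 (0.828 to 1.11), 2.13 (1.79 to 2.53) and 1.15 (1.07 to 1.25) in clusters 0, 1, 3 and 4. The TAC-6w ratio of Nlrp3 was 1.12 (0.888 to 1.41) in cluster 0, 1.57 (1.15 to 2.11) in cluster 1, 1.05 (0.702 to 1.64) in cluster 3 and 3.14 (2.22 to 4.39) in cluster 4, so that cluster 4, with 32 cells in TAC-6w, had the highest ratio of both Tnf and Nlrp3.

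**Figure D3:**
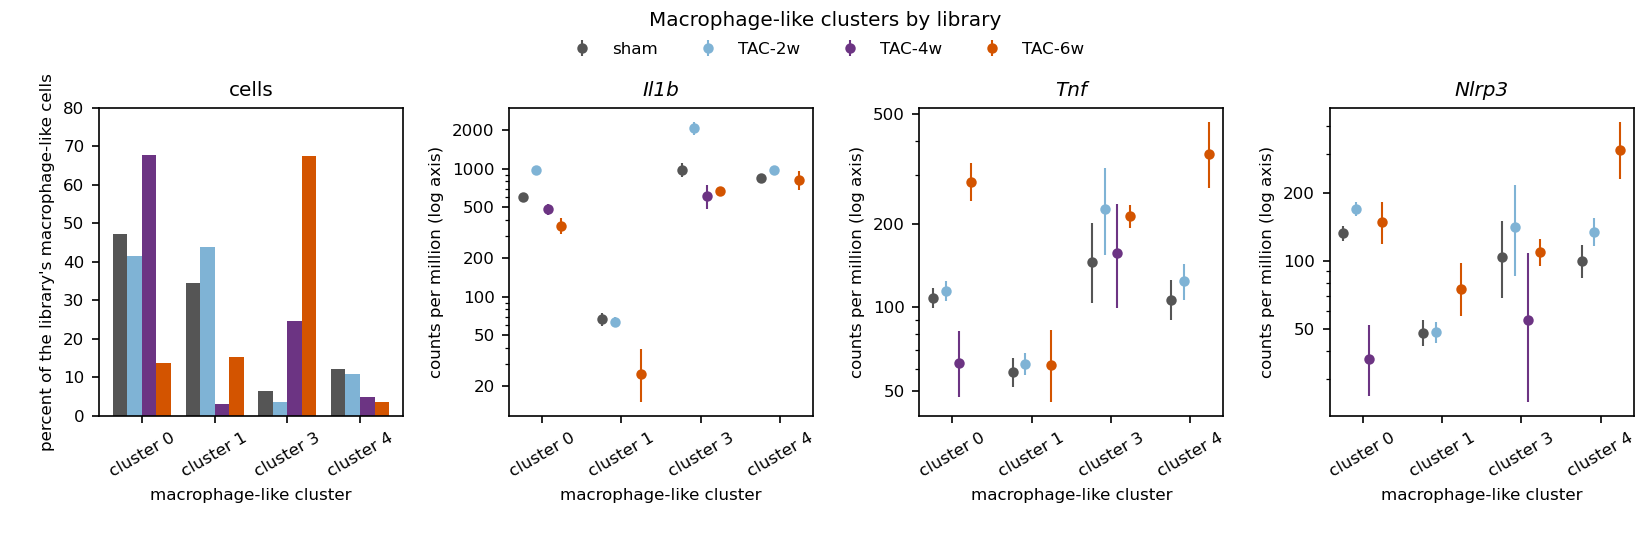
Share of each library's macrophage-like cells in 4 clusters (bars, percent) and levels of Il1b, Tnf and Nlrp3 in them (points, CPM, log axis) with exact Poisson intervals; clusters of few cells have no point. In cluster 0 Tnf is at 108 in sham and 284 in TAC-6w while Il1b is at 606 and 358, and in the Lyve1 cluster Tnf is at 58.3 and 62.1.

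In neutrophil-like cells Tnf was at 172, 69.6, 80.6 and 140 CPM, lower than sham in TAC-2w (ratio 0.406, 0.231 to 0.681) and in TAC-4w (0.470, 0.365 to 0.612). The TAC-2w value rests on 19 UMIs. The TAC-4w ratio ran from 0.450 to 0.578 over 11 other settings and was 0.526 in mature cells. In monocyte-like cells Tnf was at 150, 118, 46.3 and 213 CPM, and the TAC-4w ratio of 0.310 (0.226 to 0.426) became 0.638 when each cell was named by its own marker score. T cell-like cells, a further known source of this cytokine, had 54.0, 27.7, 130 and 114 CPM and were the highest class for Tnf in TAC-4w.

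Il6 encodes interleukin-6, whose signal passes through the shared receptor chain Il6st. Fibroblast-like cells had 76.9 CPM (74.4 to 79.4), 85.3 (82.5 to 88.2), 7.65 (5.64 to 10.1) and 45.2 (42.2 to 48.3). TAC-4w was lowest, at 0.0995 of sham (0.0732 to 0.132) and between 0.0845 and 0.126 over 10 other settings, and rests on 48 UMIs in 431 cells. TAC-6w, in the batch of sham, was at 0.588 (0.545 to 0.633), short of 2-fold with an interval below 1. The fibroblast-like cells sat in different clusters in each library: cluster 0, led by Pla1a, Pcsk6 and Cxcl14, held 43.0%, 41.2%, 20.0% and 74.1% of them, and cluster 1, led by Igfbp3, Sfrp2 and Rbp4, 53.3%, 54.0%, 71.0% and 23.5%. Il6 was lower in cluster 0, at 47.2, 56.6, 4.71 and 34.8 CPM, than in cluster 1, at 109, 118, 9.69 and 92.4 CPM. Within them the TAC-4w ratio was 0.0997 (0.0365 to 0.218) and 0.0885 (0.0636 to 0.12), and the TAC-6w ratio 0.736 (0.661 to 0.819) and 0.844 (0.752 to 0.944), nearer to 1 than over the whole class. Cluster 10, led by Wif1 and Chad, had 0 Il6 UMIs in both TAC-4w and TAC-6w. Fibroblast-like cells as a whole held 93.9%, 96.6%, 17.6% and 94.7% of each library's Il6 UMIs. In TAC-4w, 20 cells of an unnamed cluster, described below, held 203 Il6 UMIs. At 1000 UMIs per cell the share of fibroblast-like cells with an Il6 UMI was 5.21%, 6.23%, 0.465% and 3.62%, against 0.336%, 0.338%, 0 of 162 cells and 1.05% of macrophage-like cells.

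In macrophage-like cells Il6 stood at 1.61, 5.06, 1.72 and 5.92 CPM from 18, 69, 2 and 20 UMIs. The TAC-2w ratio was 3.15 (1.85 to 5.62) and the TAC-6w ratio 3.69 (1.85 to 7.39), the latter below the minimum of 50 UMIs. The TAC-2w ratio was 1.51 when each cell was named by its own marker score, and the share of thinned cells with a UMI was the same in sham and TAC-2w, 5 of 1487 and 5 of 1480. Of the 69 TAC-2w UMIs, 53 lay in macrophage-like cluster 1, the Lyve1 cluster. There the TAC-2w ratio was 6.87 (2.77 to 22.0), from 5 UMIs in sham. Cluster 0 had 13 UMIs in TAC-2w and 9 in sham. The other macrophage-like clusters are not given here.

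Osm encodes oncostatin M, a cytokine of the interleukin-6 family that acts through Osmr and Il6st. In neutrophil-like cells it was at 636, 608, 847 and 516 CPM, highest in TAC-4w. Unlike Il1b it was not low in immature cells, which had 557, 750, 952 and 769 CPM against 655, 528, 772 and 318 in mature ones. In TAC-6w the mature cells were at 0.485 of sham (0.365 to 0.638), while the whole class was at 0.812. Monocyte-like cells had 339, 170, 163 and 202 CPM, so that sham was highest. The TAC-4w ratio of 0.480 moved to 0.753 with a finer second clustering and to 0.887 with naming by marker score. Macrophage-like cells had 29.8, 26.5, 24.0 and 26.6 CPM with overlapping intervals.

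Il10 encodes interleukin-10, which damps cytokine production by macrophages. Macrophage-like cells had 10.7 (8.88 to 12.8), 9.68 (8.10 to 11.5), 0 and 16.3 (12.3 to 21.2) CPM. Within macrophage-like cluster 0 the TAC-6w ratio to sham was 3.39 (1.99 to 5.59), from 23 UMIs in TAC-6w. Cluster 1 had 4.97 CPM (3.15 to 7.45) in sham and 19.8 (11.1 to 32.7) in TAC-6w, the latter from 15 UMIs. The other clusters are not given here. None of the 167 TAC-4w macrophage-like cells had an Il10 UMI, which allows up to 1.80% of cells with a UMI by a floor of 3 cells and 2.19% by the exact limit, against 2.92% (2.13% to 3.90%) in sham. At 1000 UMIs per cell it was 0 of 162 cells, with an exact limit of 2.25%, against 0.874% in sham, so that a difference in the share was not detectable at equal depth. For the level, a floor of 3 counts, 2.57 CPM, puts Il10 at least 4.16-fold lower there than in sham, while the exact interval of the ratio, which also carries the counting error of the 120 sham UMIs, reached up to 0.300. These cells held 78.4%, 67.0% and 90.2% of the Il10 UMIs of sham, TAC-2w and TAC-6w. Monocyte-like cells had 42.2 CPM in TAC-2w, but all 26 UMIs came from 2 of 82 cells, and the T cell-like level of 7.05 CPM in TAC-4w came from 15 UMIs in 2 cells.

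Il18 encodes interleukin-18, the other cytokine matured by caspase-1, which many cells store as a precursor. Macrophage-like cells had 31.2 (28.0 to 34.7), 31.9 (29.0 to 35.0), 32.6 (23.1 to 44.7) and 19.8 (15.4 to 25.2) CPM, lowest in TAC-6w at 0.635 of sham. In macrophage-like clusters 0 and 1 the TAC-6w ratio was 0.439 (0.186 to 0.887) and 0.458 (0.224 to 0.843), from 8 and 11 UMIs in TAC-6w. The other macrophage-like clusters are not given here. Fibroblast-like cells had 4.46, 4.42, 3.505 and 1.79 CPM, and the TAC-6w ratio was 0.402 (0.271 to 0.579). The fibroblast-like ratio ran from 0.369 to 0.458 over 10 other settings, but it was not alike in the clusters of that class: it was 0.272 (0.155 to 0.452) in cluster 0, from 18 UMIs in TAC-6w, and 0.821 (0.423 to 1.47) in cluster 1, where the interval held 1. Monocyte-like cells had 12.1, 26.0, 34.5 and 21.9 CPM, a TAC-4w ratio of 2.84 (1.24 to 8.01) that rests on 6 UMIs in sham. Neutrophil-like cells had 0 to 4.83 CPM.

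Nlrp3 encodes the sensor around which the inflammasome assembles. In neutrophil-like cells it was at 1494 (1378 to 1616), 971 (858 to 1095), 1014 (988 to 1040) and 1035 (937 to 1140) CPM, with sham above the overlapping TAC libraries. No ratio passed 2-fold. In mature cells the levels were 1838, 1377, 1607 and 1797 CPM, and the TAC-6w interval overlapped that of sham. Monocyte-like cells had 178, 261, 99.0 and 180 CPM. Macrophage-like cells had 92.8, 102, 39.4 and 118 CPM, and the TAC-4w ratio of 0.425 (0.309 to 0.571) was 0.667 after integration of the libraries and 0.639 as a mean over cells. Over 11 other settings it ran from 0.388 to 0.667. Within macrophage-like cluster 0 it was 0.276 (0.187 to 0.394), from 32 UMIs in TAC-4w.

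Nfkbia, the inhibitor of NF-kappaB, had 2937 (2774 to 3107), 2209 (2036 to 2393), 1431 (1401 to 1462) and 1757 (1628 to 1893) CPM in neutrophil-like cells. All 3 TAC libraries were below sham, TAC-4w at 0.487, or 0.611 in mature cells. Monocyte-like cells had 1459, 1099, 490 and 1170 CPM, and macrophage-like cells 1200, 1262, 548 and 1355 CPM. TAC-4w was therefore lowest in these 3 classes, at 0.336 (0.305 to 0.370) and 0.456 (0.421 to 0.494) of sham in the last 2. Fibroblast-like cells as a whole had 477, 303, 415 and 283 CPM, with TAC-2w and TAC-6w low instead. Within fibroblast-like clusters 0 and 1 the TAC-6w ratio was 0.576 (0.554 to 0.60) and 0.883 (0.840 to 0.927). The TAC-4w ratio was 0.765 and 0.833, and the TAC-2w ratio 0.602 and 0.641. In cluster 1 the TAC-6w level, 495 CPM, thus lay above that of TAC-4w, 467 CPM. Genes that rise while tissue is dissociated were also read: 4 of 10 were at least 2-fold lower in TAC-4w in each of monocyte-like, macrophage-like and fibroblast-like cells, and 0 of 8 measured in neutrophil-like cells. The 4 were the heat shock genes Hspa1a, Hspa1b and Dnajb1 in all 3 classes, with Egr1 in monocyte-like and Atf3 in the other classes, while Fos and Junb lay between 0.606 and 0.868 of sham in these 3 classes. In neutrophil-like cells Hspa1a and Hspa1b were below the minimum of UMIs, at 77.35 and 48.35 CPM in sham and 8.27 and 8.10 in TAC-4w. Dnajb1 was at 65.3 and 53.8 CPM there. The part of the dissociation genes in the Nfkbia levels was not tested.

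**Figure D4:**
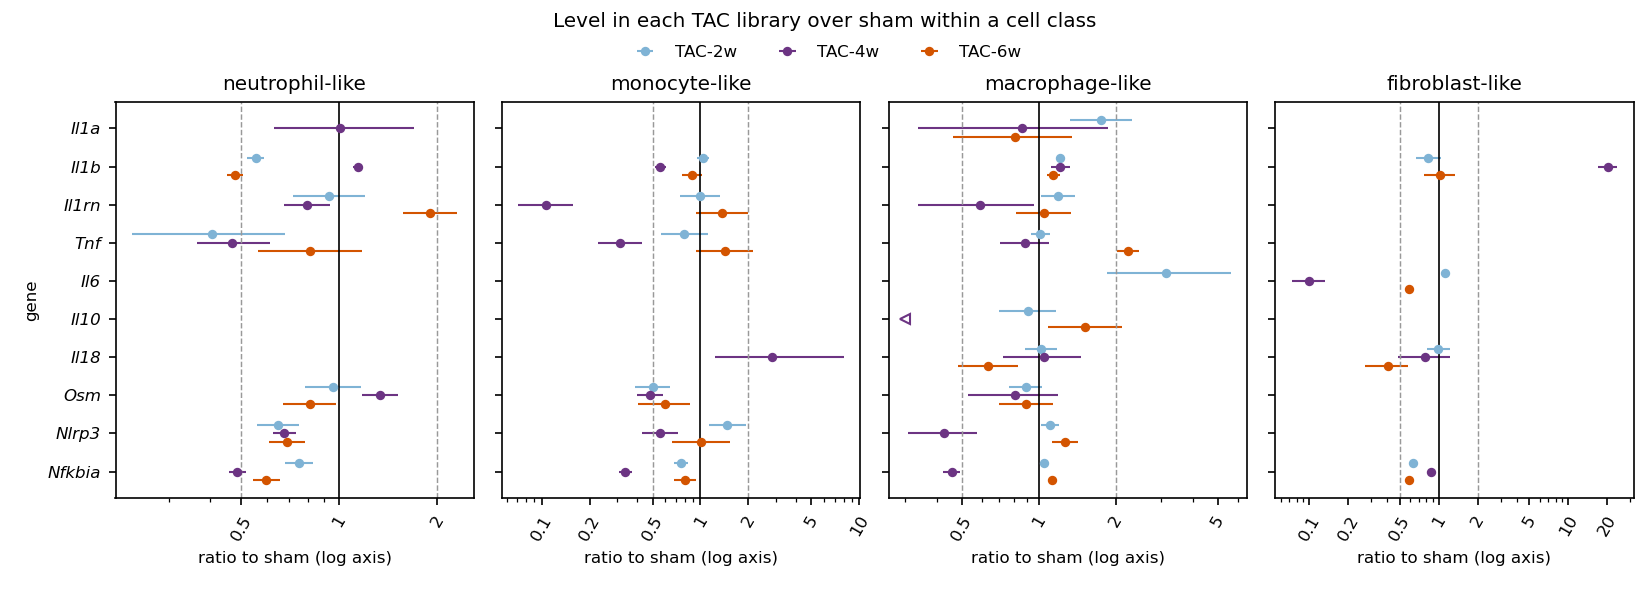
Ratio of each TAC library to sham for each member and class (log axis, exact conditional intervals), limited to sums with at least 50 UMIs in either library; dashed lines mark 2-fold either way and the open triangle the floor of 3 counts for Il10. Il1b in TAC-4w fibroblast-like cells lies farthest right, at 20.1, and Il6 in the same cells at 0.0995.

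To read these ratios, the share of all genes at or past 2-fold either way was counted where a gene reached 50 UMIs in either library. In neutrophil-like cells it was 4.11% in TAC-2w, 11.7% in TAC-4w and 17.7% in TAC-6w, against 1 of 6, 2 of 7 and 1 of 6 members. In monocyte-like cells it was 2.87%, 10.3% and 11.6%, against 0 of 6, 5 of 7 and 0 of 6 members, and 4 of the 5 in TAC-4w were lower. In macrophage-like cells it was 0.393%, 8.63% and 5.16%, against 1 of 10, 3 of 9 and 1 of 9 members. In fibroblast-like cells it was 0.873%, 9.56% and 6.77%, against 0 of 4, 2 of 4 and 1 of 4. Within the batch shared with sham, in TAC-6w, the members' counts were 1 of 6, 0 of 6, 1 of 9 and 1 of 4 in these classes. A gene could meet the minimum through 1 library alone. The median ratio of the members in TAC-4w monocyte-like cells was 0.480, against 1.08 over all genes. Classical cells were 38 of 72 of this class in sham and 157 of 213 in TAC-4w. Nfkbia was at 0.260 (0.232 to 0.291) of sham in classical and 0.736 (0.610 to 0.888) in nonclassical cells, lower in both. Osm was at 0.381 (0.307 to 0.473) and 0.998 (0.658 to 1.54), and Nlrp3 at 0.379 (0.278 to 0.520) and 1.56 (0.974 to 2.58). For these 2 genes the interval lay below 1 in classical cells alone. The split is not given here for Il1rn and Tnf. In the other 11 comparisons the median ratio of the members lay between 0.591 and 1.13, against 0.883 to 1.08 over all genes.

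Around the members, 67 further genes of these pathways were counted by the same rule, in lists of ligands, receptors, inflammasome and processing, sensing, NF-kappaB and mRNA decay. None of the 18, 18, 51 and 53 that were measured in neutrophil-like, monocyte-like, macrophage-like and fibroblast-like cells was past 2-fold in TAC-2w. In TAC-4w it was 9 of 47 (2 higher, 7 lower), 7 of 37 (2 higher, 5 lower), 7 of 50 (2 higher, 5 lower) and 12 of 53 (4 higher, 8 lower). In TAC-6w it was 3 of 18, 3 of 16, 2 of 50 and 1 of 53, all lower apart from 1 in macrophage-like cells. The share over all genes was 4.11%, 2.87%, 0.393% and 0.873% in TAC-2w and 11.7%, 10.3%, 8.63% and 9.56% in TAC-4w. In TAC-6w that share was 17.7%, 11.6%, 5.16% and 6.77%, near or above the pathway share in neutrophil-like, macrophage-like and fibroblast-like cells.

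The genes past 2-fold the same way in 2 TAC libraries within a class were Rel, Il18bp and Tnfsf10. Rel, the NF-kappaB subunit c-Rel, had 191, 176, 89.2 and 78.8 CPM in neutrophil-like cells, and was at 0.467 in TAC-4w and 0.413 in TAC-6w. Il18bp, which encodes the protein that binds and neutralizes interleukin-18, had 13.5, 12.5, 5.14 and 5.92 CPM in macrophage-like cells, at 0.382 and 0.440. Tnfsf10, the death ligand TRAIL, had 1.23, 1.25, 0.478 and 0.369 CPM in fibroblast-like cells, from 60, 52, 3 and 7 UMIs, with a TAC-4w interval of 0.0777 to 1.19. The TAC-4w interval of Tnfsf10, from few UMIs and for counting error only, held 1. UMIs and intervals of Rel and Il18bp are not given here, nor is Rel in mature neutrophil-like cells alone.

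The list of mRNA decay and feedback held Zfp36, Zc3h12a, Socs3 and Socs1, whose products destroy cytokine mRNA or block cytokine receptors. Zfp36 was not past 2-fold in any class or library. Zc3h12a was at 0.436 in TAC-4w neutrophil-like cells. Socs3, the feedback inhibitor of interleukin-6 signalling, was at 0.378 in neutrophil-like and 0.2799 in monocyte-like cells of TAC-6w, and at 0.428 in fibroblast-like cells of TAC-4w, the library in which Il6 of these cells was lowest. Its fibroblast-like level was 470, 695, 201 and 271 CPM, highest in TAC-2w and lowest in TAC-4w, as Il6 was. Of the dissociation genes, Jun, Junb, Egr1, Atf3, Hspa1a and Hspa1b were also highest in TAC-2w and lowest in TAC-4w in fibroblast-like cells. Fos, Fosb, Ier2 and Dnajb1 were not. The part of tissue handling in the Il6 and Socs3 levels was not tested. Socs1 was at 0.464 in TAC-4w fibroblast-like cells and at 0.190 in TAC-4w macrophage-like cells, the latter from 2 UMIs.

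Some receptors of the members differed strongly between the same classes, and those named here were chosen after their values were seen. Others were detected in each of these classes. In sham Tnfrsf1a was at 423 CPM in neutrophil-like, 137 in monocyte-like, 92.2 in macrophage-like and 110 in fibroblast-like cells. Il10rb was at 159.5, 50.5, 145.5 and 35.3 CPM in the same classes. Il1r1, the signalling interleukin-1 receptor, had 57.7, 66.9, 68.4 and 48.3 CPM in fibroblast-like cells and at most 7.25 in neutrophil-like cells. Il1r2, the decoy receptor that binds interleukin-1 without a signal, had 3259, 3037, 2769 and 4137 CPM in neutrophil-like cells and at most 20.7 in fibroblast-like cells. Osmr had 48.2, 49.8, 70.3 and 47.6 CPM in fibroblast-like cells and at most 3.66 in neutrophil-like cells, which were the class highest in Osm. Casp1, the enzyme of the inflammasome, had 21.8, 22.0, 21.5 and 17.8 CPM in neutrophil-like and 82.0, 76.5, 59.2 and 42.0 CPM in macrophage-like cells, so that the class highest in Il1b and Nlrp3 was not the one highest in Casp1.

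The genes whose pattern was most like each member were found by Pearson's correlation of log2(CPM + 10) over 43 sums of a class and library with at least 50 cells, among 13743 genes. The sums of a class share their cell type and those of a library its depth, so these values describe likeness and carry no test. Csf2rb, a receptor chain for GM-CSF, was most like Il1b (r = 0.956), and Tlr6, a Toll-like receptor, most like Il1rn (0.969). Clec4e, a receptor for cell debris, was most like Osm (0.967), and the transcript 1600010M07Rik most like Nlrp3 (0.967). Tnf had Bcl2a1b (0.90), Il18 Guca1a (0.934), Nfkbia Skil (0.922), Il1a Gm37168 (0.964), Il10 Gm12195 (0.874) and Il6 Efs (0.851). The next 2 genes of each were Il1rn and 9130230L23Rik for Il1a, Gm34084 and 1600010M07Rik for Il1b, Hcar2 and Trpm2 for Il1rn, Lilrb4a and Lrrc25 for Tnf, and Pcsk6 and Srpx for Il6. They were Ccl24 and Ccl8 for Il10, Ptpro and Cebpa for Il18, Mcemp1 and Ccr1 for Osm, Gm34084 and Ptafr for Nlrp3, and Casp4 and Dusp1 for Nfkbia. Il1a and Il1rn, both members, thus appeared together.

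The ST sections measured the same genes in spots of intact tissue, each of which can hold several cells. There were 1676, 2063, 1228 and 2193 spots over tissue, with median depths of 15488, 24523, 27593 and 20203 UMIs, and Myh6, a gene of cardiomyocytes, was detected in 99.95% of the TAC-2w spots and in 100% of those of the other sections. In sections, fewer cells of a type and less RNA per cell cannot be told apart. Nfkbia alone among the members was detected in many spots: it had a UMI in 45.9%, 47.8%, 67.6% and 57.8% of spots. Its level was 48.7 (46.1 to 51.5), 30.3 (28.8 to 31.9), 54.4 (51.9 to 57.0) and 56.1 (54.0 to 58.2) CPM. The TAC-2w section, in the batch of sham, was lowest, at 0.622 of sham (0.577 to 0.671), and the other 2 were at 1.12 and 1.15. These levels are over all UMIs, of which 51.5%, 43.4%, 42.2% and 44.2% were mitochondrial, the most in sham. With mitochondrial and rRNA-like genes left out of the total, 13 of 40 section levels of the members left their interval. Ratios to sham on that total are not given here, and the small ratios of 1.12 and 1.15 may depend on it. With spots thinned to 5000 UMIs, which left out 270, 15, 34 and 299 shallower spots, the share was 21.2%, 14.6%, 23.8% and 23.2%. The order of TAC-2w and sham thus turned at equal depth and followed the level, although more of the sham spots were left out.

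The other 9 members were near the limit of detection in the sections. Il1b had 8, 8, 18 and 11 UMIs, in 0.358%, 0.388%, 1.22% and 0.456% of spots. The TAC-4w ratio to sham was 1.83 (0.758 to 4.87), so that a difference was not detectable at this depth. Il18 had 9, 16, 15 and 34 UMIs, Il1rn 3, 8, 11 and 14, Nlrp3 6, 3, 16 and 6, and Tnf 2, 2, 12 and 7. Of these Tnf in TAC-4w had an interval above 1, at 4.88 (1.09 to 44.9), from 2 UMIs in sham. Its lower end lay near 1, and it too is over all UMIs, mitochondrial ones included. Il6 had 1, 0, 3 and 3 UMIs, Il10 had 0, 0, 6 and 4, Osm 0, 0, 4 and 0 and Il1a 0, 0, 0 and 1. For a gene with no UMI in the sham section, a floor of 3 spots is 0.179% and the exact limit 0.2199% of spots with a UMI, which does not limit the spots that express it.

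Neutrophil and macrophage genes were read in the spots where Il1b was seen. S100a8 or S100a9 had a UMI in 3 of 6 spots with Il1b in sham, 1 of 8 in TAC-2w, 12 of 15 in TAC-4w and 4 of 10 in TAC-6w. In spots without Il1b the share was 15.3%, 5.79%, 47.8% and 9.90%. In TAC-4w the interval of the spots with Il1b was 51.9% to 95.7%, and in TAC-6w 12.2% to 73.8%, and the spots with Il1b were deeper in TAC-6w, with a median of 35466 against 20035 UMIs. The part of depth in this was not tested. C1qa or C1qb, genes of macrophages, were in 5 of 6, 7 of 8, 15 of 15 and 10 of 10 of the spots with Il1b and in 67.5%, 85.6%, 95.3% and 87.5% of the others. S100a8 alone was in 8.83%, 3.25%, 34.9% and 6.11% of spots, so that the section of TAC-4w, like the library of cells, held the most neutrophil RNA.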

How the data were processed

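The deposited files hold UMI counts per gene and barcode, which the authors made with Cell Ranger for cells and Space Ranger for sections on mm10 and deposited without normalization. The submitters' processing notes name Cell Ranger 7.0.0 and Space Ranger 1.3.1, and the file headers 6.0.0 and 1.2.0. The libraries held 28793316 to 86671674 UMIs and the sections 25996378 to 48754396.

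From these counts, the limits of the study's methods were applied to cells: 200 to 6000 genes, 500 to 30000 UMIs, and less than 15% mitochondrial UMIs. The 3.2% of cells per library with the highest Scrublet scores (scanpy 1.11.5, expected rate 7%) were removed as doublets. Cells were merged and clustered with Seurat 5.3.0 under R 4.3.3 (3000 variable genes without the members and pathway genes, 30 components, resolution 0.25), and myeloid cells again at 0.5. Clusters were named from 6 markers per type, of which at least 3 had to be detected. Spots were not filtered.

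UMIs were summed per class and library and divided by the sum's total. Levels carry exact Poisson intervals, ratios exact conditional binomial intervals and shares Clopper-Pearson intervals (Python 3.11.15, scipy 1.17.1). UMIs remove most PCR copies, and the intervals cover counting error only. A gene was counted as past the threshold at 2-fold either way with at least 50 UMIs in either sum. On simulated counts this recovered 100% of changed genes for macrophage-like TAC-2w cells (9210 genes) and for neutrophil-like TAC-6w cells (961 genes). The planted changes were larger than 2-fold, in genes with at least 50 UMIs in sham, so that near-full recovery was built in. Only counting error was simulated. The simulation therefore checks the calculation and cannot show how well changes are found between single libraries. With 1 library per condition, no test between conditions was made.

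All members were named, with pathway genes past 2-fold the same way in at least 2 TAC libraries within a class, genes of lists of 5 or fewer, and the 3 genes most like each member. Members and lists were chosen with earlier results of these data known. Alternatives changed the doublets, filters, naming, variable genes, integration (RPCA), resolution, totals, averaging, depth, minimum and fold. Those without S100a8 and S100a9, with mature neutrophil-like cells only and without macrophage-like cluster 3, and the splits of fibroblast-like and mature neutrophil-like cells by cluster, were added after the data were seen.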

Additional observations from a re-analysis of the deposited data

How the results depend on the processing

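The number of members past 2-fold, summed over the 3 TAC libraries, was 4 in neutrophil-like, 5 in monocyte-like, 5 in macrophage-like and 3 in fibroblast-like cells. At 1.5-fold it was 8, 9, 9 and 6. In neutrophil-like cells it was 2 with a mitochondrial share under 5%, with naming by cell score, as a mean over cells and without S100a8 and S100a9 in the total, and 1 with no filter on cells. In monocyte-like cells it was 3 with a mitochondrial share under 5% and at resolution 1. In fibroblast-like cells it was 5 with no doublets removed and with no filter on cells, and 8 at 20 UMIs. The shares of all genes given above are for the main setting at 2-fold, and were not counted for the alternatives. The number of pathway genes past 2-fold, summed alike, was 12, 10, 9 and 13, and 32, 20, 21 and 37 at 1.5-fold. In neutrophil-like cells it was 7 with a mitochondrial share under 5%, 6 with no filter on cells and 7 without S100a8 and S100a9. In monocyte-like cells it was 4 with no doublets removed, 6 with naming by cell score and 18 at 20 UMIs, and in fibroblast-like cells 5 with a mitochondrial share under 5%. The cause was not tested, apart from the settings that by construction test more genes or use a lower threshold. Of the 16 member ratios past 2-fold with UMIs in both sums, none crossed 1 under the alternatives that recomputed them for the whole class, and between 10 and 16 stayed past 2-fold under each alternative that covered all 4 classes. In mature neutrophil-like cells alone 1 of 4 did, and without macrophage-like cluster 3 all 4 of 4 did. The ratios of Il6 and Il1b in TAC-4w fibroblast-like cells, Tnf in TAC-6w macrophage-like cells, and Il18 in TAC-4w monocyte-like and TAC-6w fibroblast-like cells were past 2-fold under every alternative that recomputed them for the whole class. Within fibroblast-like clusters 0 and 1, Il18 in TAC-6w was at 0.272 and 0.821, so that the second was no longer past 2-fold, and Il6 in TAC-4w at 0.0997 and 0.0885. Il1b in TAC-4w was at 8.34 and 30.6 in these clusters. The count of members highest in neutrophil-like, monocyte-like or macrophage-like cells stayed within 1.5 times in each library. Depth limits the members in the sections, where 9 of 10 had at most 34 UMIs, and Il10, Il1a and Il18 in the smaller classes. No paired analysis was possible because each condition had 1 library of cells and 1 section.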

Other observations

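A cluster of 27 myeloid cells that was left without a name, led by Prss34, Mcpt8 and Cpa3, genes of basophil and mast cell granules, held high levels of the interleukin-6 family. Its Il6 was at 1541 CPM (1371 to 1726), in 23 of the 27 cells, and its Osm at 2599 CPM (2377 to 2837), also in 23. TAC-4w gave 20 of these cells, sham 4, TAC-6w 3 and TAC-2w 0. Il6 was at 3200 CPM in the 4 sham cells and 1306 CPM in the 20 TAC-4w cells, with 0 UMIs in the 3 TAC-6w cells, and Osm at 3234 and 2495 CPM. Il4, the type 2 cytokine, was at 1191 and 759 CPM in the same cells. Unnamed cells as a whole held 74.6% of the Il6 UMIs of the TAC-4w library, which had 431 fibroblast-like cells. Nfkbia stood at 3990 CPM and Tnf at 358 CPM in this cluster, and Il10, Il18 and Il1a had 0 UMIs.

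Another unnamed cluster, of 108 cells led by Retnla, Mmp12 and Lyz1, had Il1b at 1301 CPM (1244 to 1361), Il1rn at 263 CPM (238 to 291) and Nlrp3 at 237 CPM (213 to 264). Sham gave 41 of its cells, TAC-2w 39, TAC-6w 20 and TAC-4w 8. In NK cell-like cells of TAC-6w, Il1b was at 616 CPM, and all 36 UMIs came from 1 of 30 cells. The neutrophil gene S100a8 had 81 UMIs in these NK cell-like cells, in 3.33% of them, or 0.444 Il1b UMIs per S100a8 UMI. Whether the same cell held both genes is not given here.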
